A study of Homo sapiens with 8 samples.

Results

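Interleukins are secreted proteins by which blood cells signal to one another, and each acts through a receptor built from one or more chains. The members described here are the genes whose symbol is IL followed by a digit, together with EBI3, the subunit shared by IL-27 and IL-35. Antisense, divergent and pseudogene names were left out, and a gene had to have at least 1 count in some library. By this rule there were 74 members among the 34618 genes of the deposited table, made up of 33 ligand genes, 40 genes for receptor chains or binding proteins, and 1 enzyme named after an interleukin. A further 12 genes with such names had 0 counts in all 8 libraries, namely IL2, IL13RA2, IL17A, IL17F, IL1F10, IL20, IL21, IL22, IL22RA1, IL26, IL31 and IL34.

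The data are stranded, poly(A)-selected RNA sequencing of 8 libraries labelled as THP1, a human acute monocytic leukaemia line. The 4 RRM2_OE libraries came from cells engineered with the iRxI/AxA mutant, labelled RRM2 OE, and the 4 MOCK libraries from cells engineered with an empty vector. RRM2 encodes the small subunit of the enzyme that makes deoxynucleotides, ribonucleotide reductase, and what iRxI/AxA stands for is not spelled out in the labels. Every culture, empty-vector cells included, received doxycycline at 2 µg/mL in medium with Tet-system approved serum. Whether either line was a pool or 1 clone, and whether replicates were separate cultures, is not given in the sources used here, so the p-values below describe the spread between these libraries and may overstate the number of independent samples.

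Library totals ranged between 10994255 and 11686152 counts. RRM2 lay at 215 to 236 CPM (reads of the gene per 1e6 counts on TMM-scaled library sizes) in RRM2_OE and at 116 to 128 CPM in MOCK, which gave log2 fold change 0.87 (SE 0.05, adjusted p = 5.64e-07, edgeR). Markers of the labelled cell type were uneven and those of other lineages were present, and whether the line is as labelled was not tested. CD14, the monocyte co-receptor for lipopolysaccharide, averaged 13.0 CPM in RRM2_OE and 9.72 CPM in MOCK, and CD68, a macrophage lysosomal protein, averaged 0.737 CPM in RRM2_OE and 0.667 CPM in MOCK. Among other monocyte markers, LYZ averaged 2197 CPM in RRM2_OE and 1705 CPM in MOCK. In the same order, CD4 averaged 133 and 125 CPM, CD33 131 and 120.3 CPM, and CSF1R 114 and 96.4 CPM. CD86 averaged 107 and 62.4 CPM, ITGAM 95.1 and 75.9 CPM, and MPEG1 21.9 and 18.0 CPM. S100A9, FCGR1A and S100A8 were lower than MPEG1 in both groups. The erythroid transcription factor GATA1 averaged 105 CPM in RRM2_OE and 104 CPM in MOCK, and the adult globin HBB averaged 243 CPM in RRM2_OE and 324 CPM in MOCK. Summed over 13 erythroid and megakaryocyte markers, the level was 949 to 1063 CPM in RRM2_OE and 1081 to 1151 CPM in MOCK. Of 12 tested, the erythroid genes ALAS2 (-0.66), HBG2 (-0.64) and HBG1 (-0.57) fell, the last 2 being near-identical copies whose reads may be shared, and the platelet genes PPBP (0.91) and ITGA2B (0.15) rose on the log2 scale. The mast cell protease CPA3 averaged 429 CPM in RRM2_OE and 402 CPM in MOCK. Summed over 12 monocyte markers, the level was 2739 to 2931 CPM in RRM2_OE libraries and 2144 to 2331 CPM in MOCK libraries, and 8 of 11 tested markers rose. Most of this sum was LYZ. Summed over 15 T and NK cell markers, it was 185 to 198 CPM in RRM2_OE and 135 to 141 CPM in MOCK, with 5 of 6 tested markers higher, GZMA at 0 in all libraries and CD2, CD3E, CD3G and LCK below 1 CPM in each. Summed over 10 mast cell, basophil and eosinophil markers, it was 2249 to 2477 CPM in RRM2_OE and 2023 to 2249 CPM in MOCK, with 3 markers higher and 2 lower. The 10 B cell markers summed to 65.0 to 71.4 CPM in RRM2_OE and 155 to 173 CPM in MOCK, a sum carried by the surrogate light chain gene IGLL1, which fell (log2 fold change -1.47). Without IGLL1 the sum was 10.6 to 13.1 CPM in RRM2_OE and 7.35 to 10.7 CPM in MOCK, and CD79A rose (log2 fold change 0.63). Several of these marker sums move with the group, and their part in the results was not tested. In bulk RNA, a change in the number of cells of a kind and a change in RNA per cell cannot be told apart. A second difference crossed the groups, between replicates 1 and 3 and replicates 2 and 4, and fold changes from each pair are given for the 12 members that follow it.

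Interleukin receptors fall into families that share chains and signalling routes. IL-1 family receptors signal through the adaptor MYD88 and IRAK kinases to NF-kB, and inactive decoys and a natural antagonist hold them in check. Receptors for IL-2, IL-4, IL-7, IL-9, IL-15 and IL-21 share the common gamma chain and signal through JAK1, JAK3 and STAT factors, and the IL-6 and IL-12 families use gp130 or related chains with the same kinase family. IL-1 beta is a hallmark product of activated monocytes, and IL-3 is a growth factor of myeloid progenitors.

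Of the 74 members, 45 passed the filter on low counts (about 10 counts, or 0.876 CPM, in at least 4 libraries), and 29 did not. Among the 45 tested members, 17 were higher and 3 lower in RRM2_OE than in MOCK at an adjusted p below 0.05 (edgeR's quasi-likelihood test, Benjamini-Hochberg over all 15286 genes tested). Among all genes tested, 12.8% were called, 7.41% higher and 5.42% lower. The members' share was 44.4%, made up mostly of rises, and the 3 falls among 45 were near the 5.42% share of all genes. With replicate number as a block, 29.1% of all genes and 53.3% of the members were called. That block sets aside the difference between replicate pairs, so its p-values rest on a smaller spread between libraries. The members' median log2 fold change without the block was 0.14, beside -0.00 over all genes. Of the calls over all genes, 57.7% were rises, and 68.7% were when log2(RPKM + 1) values were tested with limma. Of the 17 members that rose, 15 had all 4 RRM2_OE libraries above all 4 MOCK libraries. Of the 3 that fell, 2 had all RRM2_OE libraries below all MOCK libraries. The call itself largely fixes this arrangement. Of the 25 uncalled members, 3 had all RRM2_OE libraries above and 1 had all below. Over all genes tested, called or not, 10.5% had all above and 8.89% had all below. The filter was reached in all 8 libraries by 41 of the 45, and IL23A, one of those that rose, reached it in 4 RRM2_OE and 3 MOCK libraries. Of the 20 called members, 4 overlap another gene on the same strand and 7 a gene on the opposite strand, where reads may be shared. By side, 6 of 14 tested ligand genes rose and 0 fell, and 10 of 30 tested receptor genes rose and 3 fell.

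**Figure D1:**
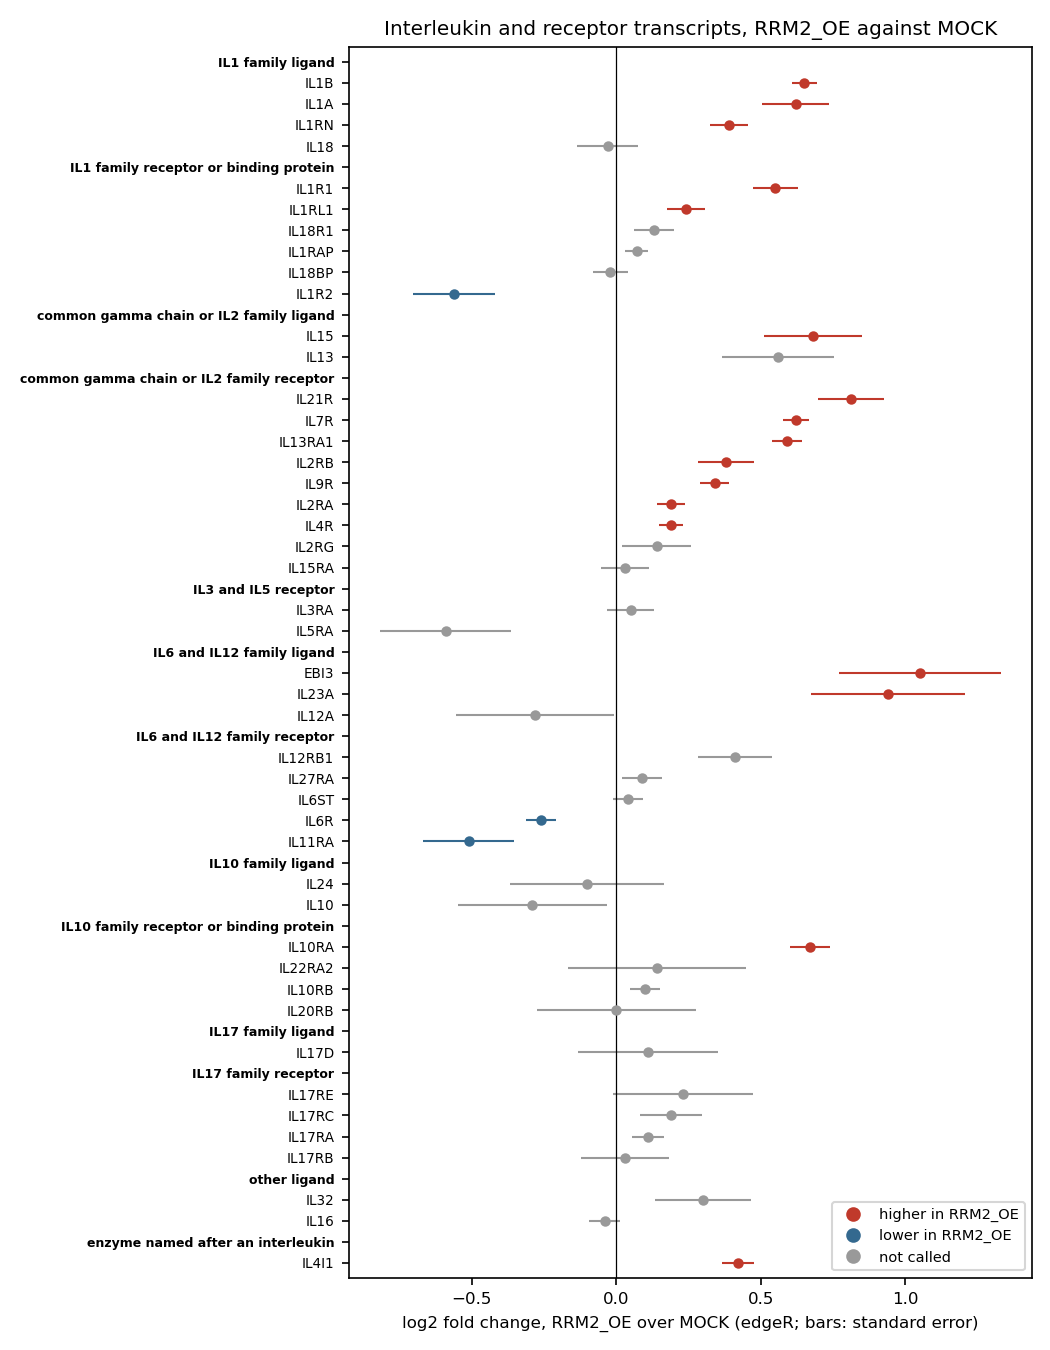
Log2 fold change (RRM2_OE over MOCK, horizontal axis) of the 45 tested members, grouped by family down the page, with standard errors as bars. The 17 members that rose are red, the 3 that fell, IL1R2, IL11RA and IL6R, are blue, and 25 that were not called are grey.

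The most abundant members were receptor chains, compared here per length as the authors' RPKM (reads per exon length and library total). IL2RG, the common gamma chain, headed the order at 146 ± 19.1 RPKM in RRM2_OE and 131 ± 17.7 RPKM in MOCK (SD, n = 4 each, as for all levels below). IL1RL1, the receptor for IL-33 also called ST2, followed at 75.6 ± 6.36 RPKM in RRM2_OE and 63.4 ± 5.69 RPKM in MOCK. IL3RA, the alpha chain of the IL-3 receptor, lay at 67.2 ± 7.9 RPKM in RRM2_OE and 64.2 ± 6.44 RPKM in MOCK. IL2RA, the alpha chain of the IL-2 receptor, lay at 66.0 ± 4.52 RPKM in RRM2_OE and 57.5 ± 2.13 RPKM in MOCK. IL3RA and IL2RA differed by less than either SD in RRM2_OE, and IL1RL1 and IL3RA did so in MOCK. Next came the 2 abundant ligands, IL1B at 55.2 ± 0.555 RPKM in RRM2_OE and 34.8 ± 0.805 RPKM in MOCK, and the IL-1 receptor antagonist IL1RN at 52.0 ± 3.01 RPKM in RRM2_OE and 39.3 ± 2.51 RPKM in MOCK. IL9R, the IL-9 receptor, stood at 40.9 ± 0.744 RPKM in RRM2_OE and 32.1 ± 2.32 RPKM in MOCK. The order of IL1B and IL1RN therefore differed between the groups, while in both they stood above IL9R. In all, 19 tested members averaged at least 10 RPKM over the 8 libraries, and of these IL1B, IL1RN and IL18 were ligands.

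**Figure D2:**
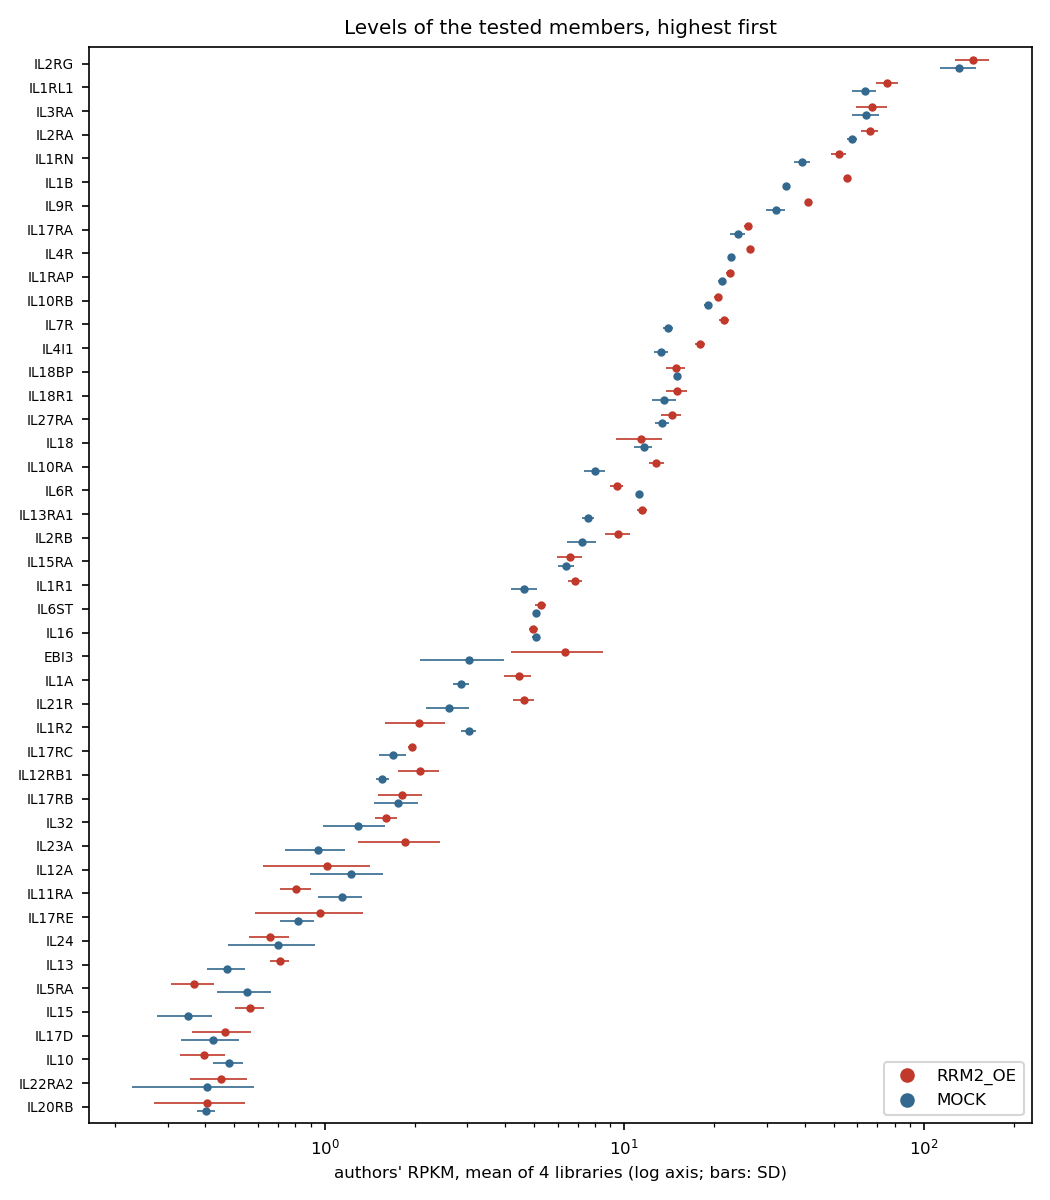
Level of each tested member as the authors' RPKM (log axis), mean of 4 libraries with SD, RRM2_OE in red above MOCK in blue, ordered by the mean over all libraries. IL2RG is highest at 146 RPKM in RRM2_OE and 131 RPKM in MOCK, and the lowest members lie near 0.4 RPKM.

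Of 4 tested IL-1 family ligand genes, IL1B, IL1A and IL1RN rose, and of 6 tested receptor or binding protein genes, IL1R1 and IL1RL1 rose and the decoy receptor IL1R2 fell. IL1B, the main secreted IL-1 of monocytes, was at 173, 170.5, 171 and 167 CPM in RRM2_OE replicates 1 to 4, against 111, 108, 111 and 103 CPM in MOCK replicates 1 to 4. All RRM2_OE libraries lay above all MOCK libraries, with a spread of a few CPM within either group. The log2 fold change was 0.65 (SE 0.04, adjusted p = 2.04e-06, edgeR), the smallest adjusted p of any tested member. IL1A, the IL-1 that also acts from the cell surface, had 10.0, 8.36, 10.7 and 8.64 CPM in RRM2_OE, against 6.16, 6.63, 6.0 and 5.65 CPM in MOCK. Its groups did not overlap either, and its log2 fold change was 0.62 (SE 0.11, adjusted p = 0.00383, edgeR). IL1RN, whose product occupies the IL-1 receptor without signalling, gave 177, 160.4, 181 and 157 CPM in RRM2_OE, against 142, 129, 129 and 116 CPM in MOCK. It rose by less, with a log2 fold change of 0.39 (SE 0.07, adjusted p = 0.00191, edgeR), and within RRM2_OE replicates 1 and 3 were the higher ones. The log2 fold change was 0.40 among replicates 1 and 3 and 0.38 among the other pair. Agonist and antagonist can be set against each other within a library: the ratio of IL1B to IL1RN in RPKM was 1.03, 1.12, 0.994 and 1.11 in RRM2_OE, against 0.825, 0.886, 0.903 and 0.933 in MOCK. Every RRM2_OE ratio exceeded every MOCK ratio. This ratio, like the others below, was chosen after the values were seen and carries no test.

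On the receptor side, IL1R1, the chain that binds IL-1 and signals, was at 50.6, 46.5, 46.2 and 50.6 CPM in RRM2_OE, against 37.3, 28.8, 34.2 and 31.9 CPM in MOCK. It rose without overlap, by 0.55 on the log2 scale (SE 0.08, adjusted p = 5.58e-04, edgeR). IL1R2, the decoy that binds IL-1 but cannot signal, had 5.31, 5.40, 8.49 and 6.13 CPM in RRM2_OE, against 8.80, 9.82, 9.59 and 9.24 CPM in MOCK. It fell, with RRM2_OE replicate 3 only just below the MOCK libraries (log2 fold change -0.56, SE 0.14, adjusted p = 0.021, edgeR). The IL1R2 call was lost in replicates 1 and 3 alone and on leaving out any one of RRM2_OE replicates 1, 2 and 4 and MOCK replicates 2 and 3 (adjusted p up to 0.0637, edgeR). The ratio of IL1R1 to IL1R2 in RPKM was 4.13, 3.74, 2.36 and 3.58 in RRM2_OE, against 1.84, 1.27, 1.55 and 1.5 in MOCK. The groups stood apart, as was fixed by IL1R1 lying above and IL1R2 below without overlap. IL1RAP, the accessory chain that IL1R1 and IL1RL1 both need, was at 216, 215, 210.1 and 219 CPM in RRM2_OE, against 199.6, 209.5, 204 and 206 CPM in MOCK. Its groups just failed to overlap, yet the log2 fold change was 0.07 (SE 0.04, adjusted p = 0.281, edgeR) and it was not called. With an odd/even replicate term it was called (adjusted p = 0.0398, edgeR), and with the replicate block it was not (adjusted p = 0.0588, edgeR).

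**Figure D3:**
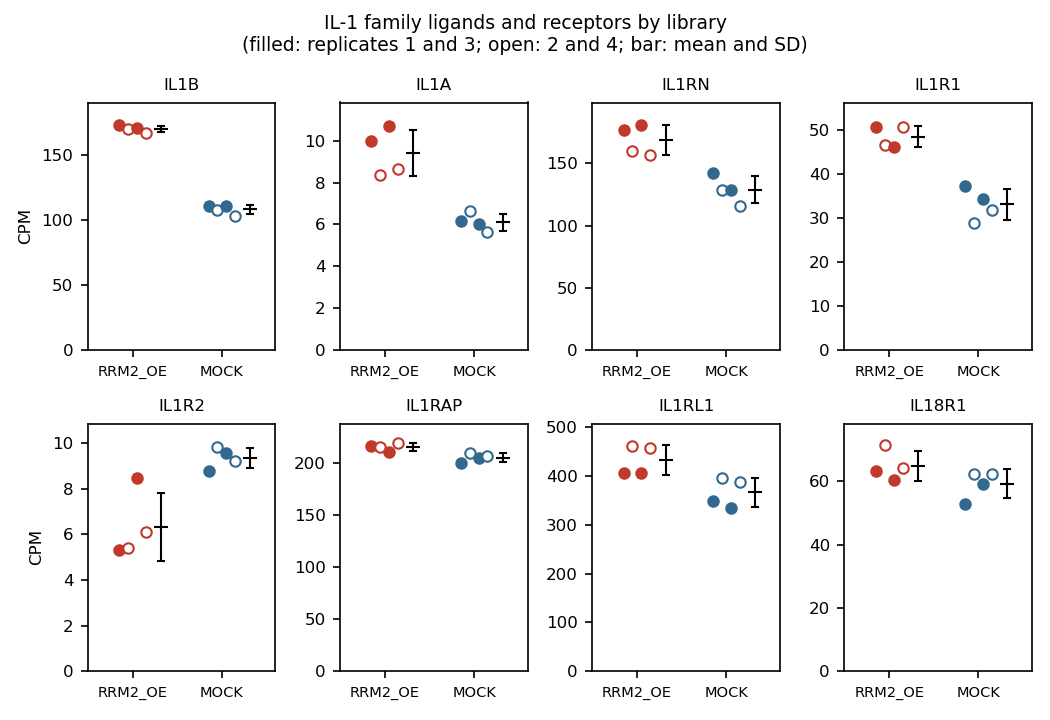
CPM in each library for 8 IL-1 family members, RRM2_OE left of MOCK in each panel, filled circles for replicates 1 and 3, open circles for 2 and 4, and bars for the mean and SD. IL1B, IL1A, IL1RN and IL1R1 are higher in every RRM2_OE library, IL1R2 is lower, and IL1RL1 is split by replicate pair within both groups.

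IL1RL1 was the most abundant receptor of its family and had 406, 461, 407 and 458 CPM in RRM2_OE, against 348, 396, 335 and 388 CPM in MOCK. It rose by 0.24 on the log2 scale (SE 0.07, adjusted p = 0.0318, edgeR), although replicates 1 and 3 were lower than 2 and 4 in both groups. Replicates 1 and 3 alone gave a log2 fold change of 0.25, and the other replicate pair gave 0.23. The call was lost with limma on log2 RPKM and without any one of RRM2_OE replicates 2 and 4 and MOCK replicates 1 and 3 (adjusted p up to 0.0947). The span of IL1RL1 overlaps that of IL18R1 on the same strand, and how reads in the overlap were counted is not stated. IL18R1, the ligand-binding chain for IL-18, was at 60.5 to 71.6 CPM in RRM2_OE, against 52.8 to 62.5 CPM in MOCK, or 0.13 in log2 fold change (adjusted p = 0.245, edgeR, and adjusted p = 0.0299 with replicate number as a block). The replicate pairs gave 0.14 in 1 and 3 and 0.12 in 2 and 4. IL18 itself, which like IL-1 beta is cut from a precursor by caspase-1, gave a log2 fold change of -0.03 (SE 0.10, adjusted p = 0.884, edgeR). For IL18 the sign differed by pair, with -0.17 among replicates 1 and 3 and 0.07 among 2 and 4. IL18BP, its soluble inhibitor, gave -0.02 (SE 0.06, adjusted p = 0.879, edgeR). IL18RAP, the accessory chain of the IL-18 receptor, had 26 counts summed over the RRM2_OE libraries and 20 over the MOCK libraries and did not pass the filter. IL33, the ligand of IL1RL1, had 0 counts summed over RRM2_OE and 1 over MOCK.

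Receptors of the common gamma chain family held most of the rises among receptors: 9 members, counting the related IL-4 and IL-13 chains, were tested, 7 rose and 0 fell. IL7R, the alpha chain for IL-7, was at 126, 132, 129.7 and 134 CPM in RRM2_OE, against 82.8, 89.7, 84.1 and 84.5 CPM in MOCK. The groups lay far apart for this gene, with a log2 fold change of 0.62 (SE 0.04, adjusted p = 4.60e-06, edgeR). IL21R, the receptor for IL-21, had 20.5, 18.2, 21.6 and 17.8 CPM in RRM2_OE, against 10.9, 10.3, 13.7 and 9.51 CPM in MOCK. Its log2 fold change of 0.81 (SE 0.11, adjusted p = 5.57e-04, edgeR) was the highest of any receptor tested, at 0.77 among replicates 1 and 3 and 0.86 among the other pair. The antisense gene IL21R-AS1 overlaps it and held 429 counts over all libraries beside 1399 for IL21R, and whether reads were counted by strand is unknown. Antisense genes also overlap IL1R1 and IL6R. IL13RA1, which pairs with IL4R to bind IL-4 and IL-13, was at 60.3, 61.1, 62.1 and 64.4 CPM in RRM2_OE, against 39.4, 42.7, 41.0 and 41.5 CPM in MOCK. It rose by 0.59 on the log2 scale (SE 0.05, adjusted p = 2.02e-05, edgeR), and the RRM2_OE libraries all stood clear of the MOCK libraries.

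IL4R, IL9R, IL2RA and IL2RB rose by smaller amounts, and IL2RG and IL15RA were not called. IL4R, the chain that binds IL-4, was at 163, 159, 161 and 155 CPM in RRM2_OE, against 143, 137, 143 and 135 CPM in MOCK. Without overlap between the groups, its log2 fold change was 0.19 (SE 0.04, adjusted p = 0.00953, edgeR), against 0.59 for its partner IL13RA1. IL9R had 106, 99.7, 104 and 99.2 CPM in RRM2_OE, against 77.6, 76.2, 85.4 and 84.6 CPM in MOCK. It rose by 0.34 on the log2 scale (SE 0.05, adjusted p = 0.00103, edgeR), and since IL9R has pseudogene copies and lies in a region shared by the X and Y chromosomes, its counts are uncertain. IL2RA gave 199, 217, 199 and 221 CPM in RRM2_OE, against 182, 187, 178 and 188 CPM in MOCK. The difference was small but without overlap (log2 fold change 0.19, SE 0.05, adjusted p = 0.0242, edgeR), and the call was lost with limma on log2 RPKM and without any one of RRM2_OE replicates 2 and 4 and MOCK replicates 1 and 3 (adjusted p up to 0.0733). For IL2RA the log2 fold change was 0.14 among replicates 1 and 3 and 0.22 among 2 and 4.

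IL2RB, the beta chain for IL-2 and IL-15, had 48.0, 39.2, 49.3 and 42.4 CPM in RRM2_OE, against 40.1, 33.3, 34.4 and 29.4 CPM in MOCK. MOCK replicate 1 lay above RRM2_OE replicate 2, so the groups overlapped, and the log2 fold change was 0.38 (SE 0.10, adjusted p = 0.0223, edgeR). That call was lost without any one of RRM2_OE replicates 1 and 3 and MOCK replicates 2, 3 and 4 (adjusted p up to 0.0649, edgeR), although either replicate pair gave a log2 fold change of 0.38. IL2RG, the chain they share, had 456, 351, 447 and 351 CPM in RRM2_OE, against 425, 326, 394 and 313 CPM in MOCK. Here replicate pair separated the libraries more than group did: replicates 1 and 3 were higher by 0.36 on the log2 scale (adjusted p = 1.28e-16, edgeR with group and pair as terms), while the group gave 0.14 (SE 0.12, adjusted p = 0.523, edgeR). With replicate number as a block IL2RG was called (log2 fold change 0.14, adjusted p = 1.04e-04, edgeR), and the value was 0.14 in either replicate pair. IL15RA, the alpha chain for IL-15, gave 0.03 (SE 0.08, adjusted p = 0.864, edgeR).

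**Figure D4:**
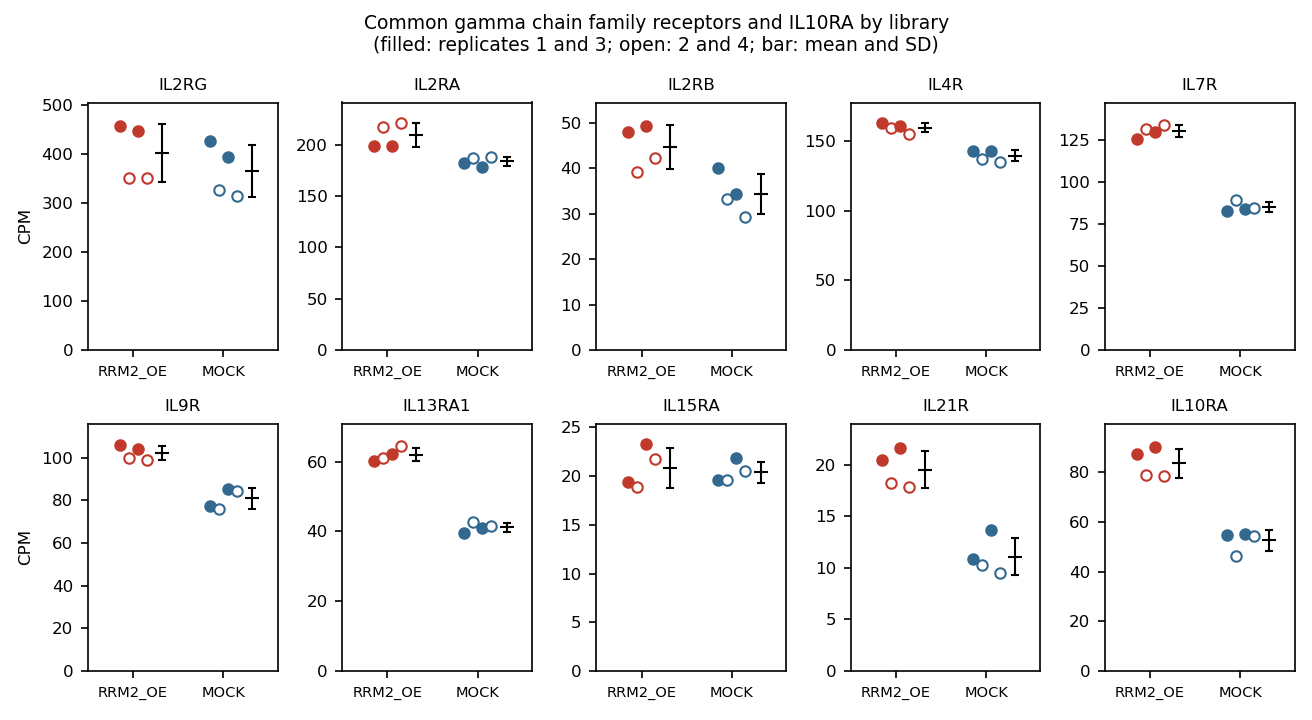
CPM in each library for the 9 common gamma chain family receptors and IL10RA, RRM2_OE left of MOCK, filled circles for replicates 1 and 3, open circles for 2 and 4, and bars for the mean and SD. IL7R, IL13RA1, IL21R and IL10RA show separate groups, whereas IL2RG follows the replicate pair, at 447 and 456 CPM against 351 CPM within RRM2_OE.

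The ligands of these receptors were scarce. IL15, which supports NK cells, had 4.52, 4.27, 3.90 and 5.01 CPM in RRM2_OE, against 2.91, 2.12, 3.49 and 2.51 CPM in MOCK. It rose without overlap (log2 fold change 0.68, SE 0.17, adjusted p = 0.0191, edgeR), but the call was lost in replicates 1 and 3 alone, where the log2 fold change was 0.39 (adjusted p = 0.281, edgeR), and without any one of RRM2_OE replicate 4 and MOCK replicates 2 and 4 (adjusted p up to 0.0573, edgeR). IL13, a type 2 cytokine, averaged 2.04 ± 0.17 CPM in RRM2_OE and 1.38 ± 0.211 CPM in MOCK, with a log2 fold change of 0.56 (SE 0.19, adjusted p = 0.0887, edgeR). The IL13 groups did not overlap, yet the gene missed the threshold. It passed with limma on log2(RPKM + 1) (adjusted p = 0.0272), and also on log2(RPKM + 0.1). Summed over 4 libraries, IL7 had 9 counts in RRM2_OE and 5 in MOCK, IL9 had 12 in RRM2_OE and 6 in MOCK, and IL4 had 5 in RRM2_OE and 2 in MOCK. IL2 and IL21 had none, although their receptor chains were transcribed. Of the IL-3 and IL-5 pair, IL3 had 1 count in RRM2_OE and 2 in MOCK and IL5 had 24 in RRM2_OE and 17 in MOCK. Their receptor chains were both tested and neither was called: IL3RA gave 0.05 (SE 0.08, adjusted p = 0.754, edgeR), and IL5RA, at 0.958 to 1.47 CPM in RRM2_OE against 1.5 to 2.21 CPM in MOCK, gave -0.59 (SE 0.23, adjusted p = 0.111, edgeR). IL3RA had 101, 125, 108 and 123 CPM in RRM2_OE, against 105, 121, 98.4 and 116 CPM in MOCK. It lies in a region common to X and Y, and its libraries followed the replicate pair, 0.24 lower on the log2 scale in replicates 1 and 3 (signed value -0.24, adjusted p = 2.12e-07, edgeR). The IL3RA group difference was 0.03 in that pair and 0.07 in the other.

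In the IL-6 and IL-12 families, 2 ligand subunits rose and 2 receptor chains fell. EBI3 had 11, 5.75, 10.2 and 5.61 CPM in RRM2_OE, against 5.81, 3.36, 3.67 and 2.87 CPM in MOCK. Its log2 fold change of 1.05 (SE 0.28, adjusted p = 0.0336, edgeR) was the highest of any tested member, but MOCK replicate 1 lay above RRM2_OE replicates 2 and 4. EBI3 also followed the replicate pair, at 0.80 higher in replicates 1 and 3 (adjusted p = 5.50e-06, edgeR), and the group difference was 1.15 among replicates 1 and 3 alone and 0.86 among the other pair. The call was lost without any one of RRM2_OE replicates 1 and 3 and MOCK replicates 2, 3 and 4, and with no low count filter (adjusted p up to 0.151, edgeR). IL23A, the p19 subunit of IL-23, had 1.65, 2.79, 1.65 and 1.64 CPM in RRM2_OE, against 0.968, 1.33, 0.806 and 0.897 CPM in MOCK. RRM2_OE replicate 2 stood above the other three, and the log2 fold change was 0.94 (SE 0.27, adjusted p = 0.0362, edgeR). This call was lost with DESeq2, in either replicate pair alone and without any one of RRM2_OE replicate 2 and MOCK replicates 1, 3 and 4 (adjusted p up to 0.135).

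IL12A, the p35 subunit that pairs with EBI3 in IL-35, gave -0.28 (SE 0.27, adjusted p = 0.562, edgeR), with 1.39 to 2.85 CPM in RRM2_OE against 1.86 to 3.31 CPM in MOCK. The partners of the risen subunits were barely measured: IL12B, the p40 chain of IL-12 and IL-23, had 9 counts over RRM2_OE and 6 over MOCK, and IL27, the p28 partner of EBI3, had 3 over RRM2_OE and 11 over MOCK. IL6, the family's namesake, had 25 counts over RRM2_OE and 8 over MOCK, and IL11 had 17 over RRM2_OE and 5 over MOCK. None of these 4 genes passed the filter.

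Among the receptors of these families, IL6R, the IL-6 binding chain, was at 63.3, 61.0, 59.3 and 55.3 CPM in RRM2_OE, against 73.1, 70.4, 71.8 and 70.9 CPM in MOCK. It fell without overlap, by 0.26 on the log2 scale (SE 0.05, adjusted p = 0.00638, edgeR). IL6ST, the gp130 chain that carries its signal, was at 46.6 to 50.3 CPM in RRM2_OE, against 46.6 to 48.9 CPM in MOCK, a log2 fold change of 0.04 (SE 0.05, adjusted p = 0.681, edgeR). The ratio of IL6R to IL6ST in RPKM was 1.99, 1.81, 1.77 and 1.61 in RRM2_OE, against 2.19, 2.16, 2.25 and 2.23 in MOCK, again without overlap. IL11RA, the IL-11 binding chain, had 3.13, 3.92, 3.21 and 3.45 CPM in RRM2_OE, against 5.02, 4.78, 5.91 and 3.86 CPM in MOCK. The groups overlapped by a narrow margin and the log2 fold change of -0.51 passed barely (SE 0.16, adjusted p = 0.0493, edgeR). It missed the threshold with DESeq2, with library totals in place of TMM, on log2 RPKM, in replicates 2 and 4 alone, and without any one library except MOCK replicate 4 (adjusted p up to 0.559), and its span overlaps GALT on the same strand. IL27RA gave 0.09 (adjusted p = 0.475, edgeR). IL12RB1, a chain of the IL-12 and IL-23 receptors, gave 0.41 (SE 0.13, adjusted p = 0.0516, edgeR), and adjusted p = 0.00814 with replicate number as a block. Below the filter were IL23R, with 38 counts over RRM2_OE and 29 over MOCK, IL12RB2, with 18 over RRM2_OE and 16 over MOCK, and IL31RA, with 4 over RRM2_OE and 2 over MOCK.

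**Figure D5:**
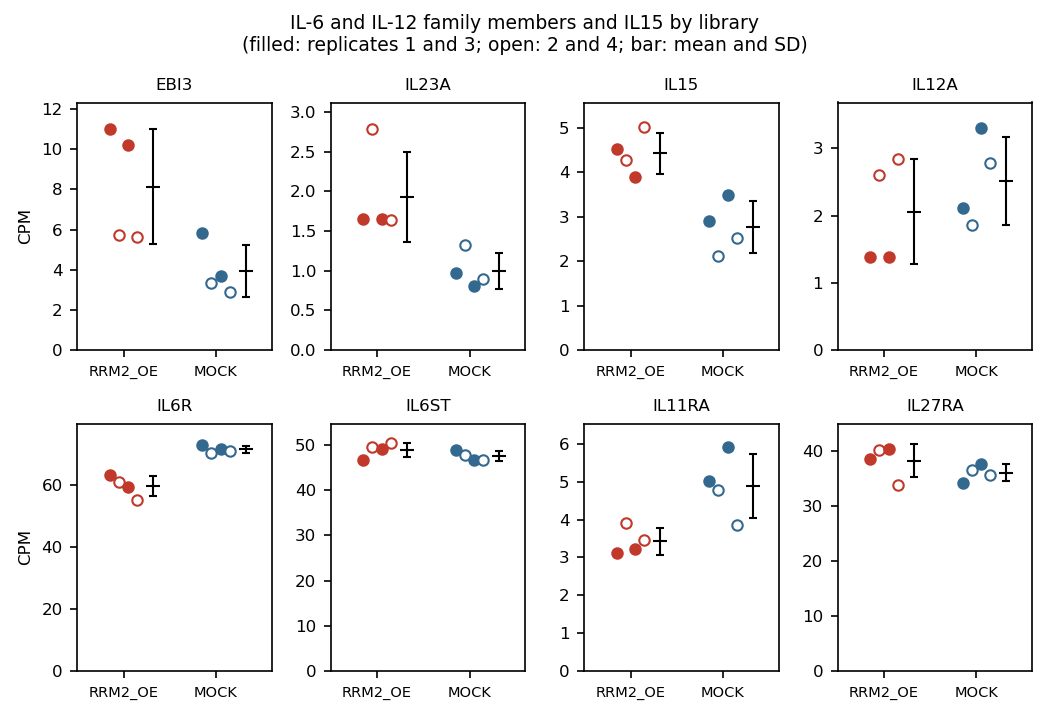
CPM in each library for 7 IL-6 and IL-12 family members and IL15, RRM2_OE left of MOCK, filled circles for replicates 1 and 3, open circles for 2 and 4, and bars for the mean and SD. IL6R is lower in every RRM2_OE library, IL6ST overlaps, and EBI3 is split within RRM2_OE into 10.2 and 11 CPM in replicates 1 and 3 and 5.61 and 5.75 CPM in replicates 2 and 4.

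In the IL-10 family, one chain of the IL-10 receptor changed and the other was not called. IL10RA, the chain that binds IL-10, had 87.2, 78.7, 90.0 and 78.6 CPM in RRM2_OE, against 54.6, 46.4, 55.2 and 54.3 CPM in MOCK. It rose by 0.67 on the log2 scale (SE 0.07, adjusted p = 6.02e-05, edgeR), with a gap of more than 20 CPM between the groups. The pairs gave 0.69 in replicates 1 and 3 and 0.65 in 2 and 4. IL10RB, the second chain, which also serves IL-22, IL-26 and the lambda interferons, was at 53.1, 53.3, 51.1 and 51.0 CPM in RRM2_OE, against 49.9, 49.7, 46.7 and 48.5 CPM in MOCK. Its groups did not overlap, but the log2 fold change was 0.10 (SE 0.05, adjusted p = 0.24, edgeR), and its span overlaps the read-through gene IFNAR2-IL10RB on the same strand. IL10 itself was at 0.693 to 0.958 CPM in RRM2_OE, against 0.796 to 1.06 CPM in MOCK (log2 fold change -0.29, SE 0.26, adjusted p = 0.613, edgeR). IL24 gave -0.10, IL22RA2 gave 0.14 and IL20RB gave -0.00, with standard errors of 0.27, 0.31 and 0.27, and the lowest of their adjusted p-values was 0.827 (edgeR). At about 1 CPM these genes could have changed by a fair amount without a call.

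Of the IL-17 family 5 members were tested and 0 were called. IL17RA, the chain common to its receptors, was abundant at 237, 225, 246 and 227 CPM in RRM2_OE, against 238, 213, 217 and 199.8 CPM in MOCK. The groups overlapped and the log2 fold change was 0.11 (SE 0.06, adjusted p = 0.245, edgeR), or 0.11 with adjusted p = 0.00813 with replicate number as a block. Replicates 1 and 3 gave 0.08 and the other pair gave 0.13. IL17RC gave 0.19, IL17RE 0.23 and IL17RB 0.03, and the ligand IL17D gave 0.11 (lowest adjusted p = 0.279, edgeR). Among the ligands, IL17B had 14 counts over RRM2_OE and 6 over MOCK, IL17C had 6 over RRM2_OE and 7 over MOCK, and IL25 had 0 over RRM2_OE and 1 over MOCK. Of 2 ligands outside these families, IL16, a chemoattractant for CD4-bearing cells, gave -0.04 (SE 0.05, adjusted p = 0.689, edgeR) at 50.8 to 55.5 CPM in RRM2_OE against 52.7 to 57.3 CPM in MOCK, and IL32, an inflammatory cytokine, gave 0.30 (SE 0.17, adjusted p = 0.272, edgeR). IL4I1, a secreted enzyme that oxidises aromatic amino acids and carries an interleukin name only for its induction by IL-4, had 45.1, 46.9, 44.9 and 46.5 CPM in RRM2_OE, against 32.2, 34.1, 35.6 and 34.8 CPM in MOCK. It rose without overlap by 0.42 (SE 0.06, adjusted p = 3.55e-04, edgeR), and its span overlaps NUP62 on the same strand.

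The 29 members below the filter had between 1 and 67 counts over all 8 libraries. Among receptors not yet named, the RRM2_OE and MOCK sums were 10 and 20 for IL17REL, 7 and 12 for IL17RD, 9 and 10 for IL1RAPL1, 7 and 1 for IL20RA, 2 and 1 for IL1RL2, and 0 and 1 for IL1RAPL2. Among ligands not yet named they were 5 and 2 for IL19, 2 and 2 for IL36A, 2 and 1 for IL36B, 1 and 2 for IL36G, 1 and 0 for IL36RN, and 2 and 0 for IL37. None of the 29 entered the main test, since this depth gave too few counts. They did enter the alternative without a low count filter.

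The machinery that carries interleukin signals was measured in 5 lists. Of 25 tested JAK, STAT, SOCS and related genes, 3 rose and 1 fell, with a median log2 fold change of 0.06. SOCS3, a feedback inhibitor of cytokine receptors, averaged 50.7 ± 1.92 CPM in RRM2_OE and 35.7 ± 1.78 CPM in MOCK (log2 fold change 0.51, SE 0.06, adjusted p = 1.32e-04, edgeR). STAT4, which carries IL-12 signals, rose by 0.44 (SE 0.06, adjusted p = 6.36e-04, edgeR). The kinase JAK3, partner of the common gamma chain, rose by 0.31, and STAT5A fell by 0.18. Of 17 genes between IL-1 receptors or IL-17 receptors and NF-kB, 3 rose and 1 fell, with a median of 0.03. The inhibitory kinase homologue IRAK3 averaged 162 ± 3.34 CPM in RRM2_OE and 198 ± 4.67 CPM in MOCK (log2 fold change -0.29, SE 0.04, adjusted p = 5.82e-04, edgeR), and IRAK2, which transmits the signal, rose by 0.58 (SE 0.11, adjusted p = 0.00372, edgeR). MYD88 gave 0.04 (adjusted p = 0.826, edgeR).

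Of 12 tested inflammasome genes, which govern the cutting of IL-1 beta and IL-18, 3 rose and 0 fell, with a median of 0.17. CASP1, the protease that cuts both, averaged 53.7 ± 1.41 CPM in RRM2_OE and 44.0 ± 2.51 CPM in MOCK (log2 fold change 0.29, SE 0.06, adjusted p = 0.00597, edgeR), and the sensor NLRP1 rose by 0.41 (SE 0.11, adjusted p = 0.0226, edgeR). Of 13 related receptor chains without an interleukin name, 1 rose and 1 fell, with a median of 0.10. CSF3R, the receptor for G-CSF, averaged 178 ± 17.3 CPM in RRM2_OE and 268 ± 19.8 CPM in MOCK (log2 fold change -0.59, SE 0.07, adjusted p = 2.40e-04, edgeR), and CSF1R rose by 0.25 (SE 0.06, adjusted p = 0.0132, edgeR). CSF2RB, the beta chain that IL3RA and IL5RA need, gave 0.08 (adjusted p = 0.304, edgeR). Of 9 tested related ligands, 4 rose and 0 fell, with a median of 0.28. CXCL8, once named interleukin 8, averaged 828 ± 33.1 CPM in RRM2_OE and 626 ± 21.6 CPM in MOCK (log2 fold change 0.40, SE 0.05, adjusted p = 1.63e-04, edgeR), and oncostatin M (OSM), a ligand of the gp130 group, rose by 0.26 (SE 0.04, adjusted p = 0.0017, edgeR). The 5 lists together had 14 rises and 3 falls among 76 tested genes, or 22.4% called beside 12.8% of all genes. By the counts above, the JAK and STAT list and the receptor chain list stayed near the share of all genes. The other lists lay further above it, the related ligands most of all, each on few genes.

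Promoter letters were searched in the 250 bases before the first listed RefSeq start of each gene (GRCh38.p14, a different build from the hg19 of the counts), and 41 of the 45 tested members had an entry. IL15, IL17RA, IL18 and IL2RB had none. The letters TGANTCA, the core bound by AP-1 factors, read alike on both strands and occurred in 7 of 15 members that rose, in 0 of 26 other tested members and in 6.6% of all 27305 promoters. Allowing any listed start, they occurred in 7 of 15 and 3 of 26 members and in 8.06% of all genes. A loose kappaB-like pattern (3 Gs, any 5 bases, then 2 Cs, searched on both strands) occurred in 7 of 15 members that rose (46.7%), in 69.6% of 23 uncalled members and in 53.7% of all promoters. TTCNNNGAA, the STAT-type GAS letters (alike on both strands), occurred in 6.67% of the members that rose, in 13.0% of those uncalled and in 6.78% of all promoters. Of the 3 members that fell, 66.7% held the kappaB-like pattern and 0.0% the GAS letters. At any listed start, the kappaB-like pattern occurred in 53.3% of members that rose, 76.9% of the 26 others and 57.8% of all genes. For the GAS letters these shares were 13.3%, 15.4% and 8.09%. The AP-1 letters overlapped no match to the other motifs in these windows. The 7 promoters below were picked because they hold the AP-1 letters, and the other members that rose and had an entry lack them. The 7 stretches are shown on the gene's own strand, with the AP-1 letters in capitals and up to 30 bases to either side:
EBI3: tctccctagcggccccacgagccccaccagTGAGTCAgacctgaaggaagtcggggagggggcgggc
IL10RA: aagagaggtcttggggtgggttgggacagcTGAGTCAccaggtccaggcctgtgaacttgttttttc
IL1A: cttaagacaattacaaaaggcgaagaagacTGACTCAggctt
IL1RL1: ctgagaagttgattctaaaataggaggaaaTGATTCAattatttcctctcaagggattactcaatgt
IL1RN: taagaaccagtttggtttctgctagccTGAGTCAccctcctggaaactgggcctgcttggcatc
IL23A: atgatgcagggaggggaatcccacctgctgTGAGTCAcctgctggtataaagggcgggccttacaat
IL9R: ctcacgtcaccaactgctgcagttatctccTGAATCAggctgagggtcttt
These lie at chr19:4229375-4229441 (EBI3, plus strand), chr11:117989842-117989908 (IL10RA, plus), chr2:112784494-112784535 (IL1A, minus), chr2:102337036-102337102 (IL1RL1, plus), chr2:113117721-113117784 (IL1RN, plus), chr12:56338777-56338843 (IL23A, plus) and chrX:155997645-155997695 (IL9R, plus). The capitals begin 118 bases before the start in EBI3, 77 in IL23A, 73 in IL10RA and 12 in IL1A. In IL23A the kappaB-like letters ggggaatccc stand just before them. A match of letters is a description of the reference sequence, and binding was not measured.

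IL1B and IL7R, the 2 members with the smallest adjusted p, hold no AP-1 letters in this window. Their 250 bases before the start are shown for contrast, with the GAS letters of IL1B (chr2:112836780-112837029, minus) and the kappaB-like letters of IL7R (chr5:35856641-35856890, plus) in capitals:
IL1B: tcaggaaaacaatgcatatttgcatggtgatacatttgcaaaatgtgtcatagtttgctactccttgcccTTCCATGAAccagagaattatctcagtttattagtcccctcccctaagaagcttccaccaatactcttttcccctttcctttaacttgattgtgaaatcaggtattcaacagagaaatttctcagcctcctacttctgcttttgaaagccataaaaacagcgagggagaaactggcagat
IL7R: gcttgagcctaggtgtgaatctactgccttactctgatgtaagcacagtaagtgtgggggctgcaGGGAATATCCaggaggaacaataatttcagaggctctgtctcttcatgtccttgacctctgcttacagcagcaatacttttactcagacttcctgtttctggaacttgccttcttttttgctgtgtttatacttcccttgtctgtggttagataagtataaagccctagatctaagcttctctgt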

How the data were processed

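RNA of 4 RRM2_OE and 4 MOCK libraries was sequenced, and groups and replicate numbers come from the sample descriptions. Per the submitters' processing notes, bcl2fastq 2.18.0.12, TopHat2, HTSeq 0.11.2 and hg19 (GRCh37) were used. Neither the annotation nor the counting's strand setting is given in the sources used here. Deposited by the authors were whole-number counts per Ensembl gene and RPKM values, which recomputation from counts, library totals and exon lengths matched to within 4.7e-06. Symbols came from Ensembl IDs (32562 current, 299 from GENCODE 29, 1757 unnamed); SOCS7 and CARD17 of the lists were not matched.

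Counts were tested with edgeR 4.0.16 (R 4.3.3): filterByExpr, TMM and robust quasi-likelihood tests of group alone, with Benjamini-Hochberg adjustment over 15286 genes. The test was run on simulated counts beforehand. Alternatives used DESeq2 1.42.0 on counts, and limma 3.58.1 on log2(RPKM + 1) and log2(RPKM + 0.1). Same-numbered libraries of the groups correlated at 0.25, 0.23, 0.22 and 0.23 in deviations from group means, so replicate number entered as a block in an alternative. Correlations between unlike-numbered libraries are not given here, so these values do not show that libraries were matched by number. Libraries of like parity in a group differed by a chi-square of 1.47 to 2.90 per degree of freedom, those of unlike parity by 6.18 to 12. Counting noise alone would give about 1. The labels give no reason for the split, and no libraries were merged. Fits with a replicate block or pair term, or within 1 pair, rest on the small spread left once parity is set aside. Their p-values may overstate the number of independent samples further.

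Every tested member is named, and values in each library are given for those called or at 20 RPKM or more. Of each pathway list the 2 genes with the smallest adjusted p are named, and other genes were chosen after their values were seen. The members and lists were chosen with earlier results of these data known. Receptor protein sequences were not used here.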

Additional observations from a re-analysis of the deposited data

Results flagged for a closer look

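Within 90 sets of 4 libraries (45 tested members in 2 groups), 5 had a library whose gap to its neighbour was large against the range of the set, where chance alone would give about 1 in 20 sets. All 5 were replicate 2 libraries, 3 in RRM2_OE and 2 in MOCK. IL23A was at 2.79 CPM in RRM2_OE replicate 2, above the next library at 1.65 CPM. IL20RB was at 1.48 CPM in RRM2_OE replicate 2, above 0.87 CPM, and IL16 was at 50.8 CPM there, below 54.7 CPM. IL10RA was at 46.4 CPM in MOCK replicate 2, below 54.3 CPM. IL22RA2 was at 1.95 CPM in MOCK replicate 2, above 0.987 CPM.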

How the results depend on the processing

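No tested member was called in opposite directions under any alternative run. Of the 20 called members, 12 kept their call in every alternative, namely IL1A, IL1B, IL1RN, IL1R1, IL4R, IL7R, IL9R, IL13RA1, IL21R, IL10RA, IL6R and IL4I1. The other 8 lost it in at least one, and 8 uncalled members gained a call in at least one. The gains were in IL2RG, IL17RA, IL18R1, IL12RB1, IL1RAP, IL13, IL12A and IL5RA. IL12A was called lower in replicates 1 and 3 alone (log2 fold change -0.96, adjusted p = 0.0254, edgeR). IL5RA was called lower in replicates 2 and 4 alone (log2 fold change -1.0, adjusted p = 0.0422, edgeR). Among members, 11 rose and 1 fell at an adjusted p below 0.01, and leaving out one library at a time left 12 to 15 higher and 1 to 3 lower. With the replicate block, 21 members were higher and 3 lower, no called member was lost, and IL2RG, IL17RA, IL18R1 and IL12RB1 were gained. Over all genes, 2303 were higher and 2143 lower with the replicate block, and 2427 and 2277 with an odd/even term. Replicates 1 and 3 alone gave 1330 lower, limma gave 463 lower on log2(RPKM + 1) and 453 on log2(RPKM + 0.1), and the 0.01 threshold gave 530 higher and 281 lower. Leaving out single libraries gave 808 to 937 higher and 542 to 607 lower. The cause of these shifts was not tested. RRM2 stayed called throughout. Depth limits genes near 1 CPM, where a member has some 10 counts a library.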

Other observations

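The replicate pairs differed over genes at large, by the chi-square values above, and interleukin genes were among them. In a fit with group and pair as terms, 12 of 45 tested members differed between replicates 1 and 3 and replicates 2 and 4 at an adjusted p below 0.05 (edgeR), 7 higher and 5 lower in replicates 1 and 3. The share of all genes that did so is not given here, so this count cannot be read as particular to interleukin genes. EBI3 (0.80 on the log2 scale), IL2RG (0.36), IL21R (0.26) and IL2RB (0.25) were higher there, and IL18 (-0.25), IL3RA (-0.24) and IL1RL1 (-0.19) were lower. The group difference did not itself differ between the pairs at an adjusted p below 0.05 for any member (edgeR interaction term, lowest adjusted p = 1.00), and 4 members had an unadjusted p below 0.05. These 4 were IL12A, IL1R1, IL22RA2 and IL18BP. For IL12A the log2 fold change was -0.96 in replicates 1 and 3 and 0.24 in the other pair. All 20 called members had the same sign in either pair, as is partly fixed by having called them on all 8 libraries.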
